A study of Rattus norvegicus with 8 samples.

Results

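Aquaporin 1 (Aqp1) is a water channel, and it was followed here in the C6 rat glioma line, an established line of glial origin, across cells labelled fast and slow. All probe sets annotated to Aqp1 were taken, and there was 1, X67948_at, among 7006 probe sets that carried a single gene symbol (4736 genes). The other aquaporins on the array served as the family background, namely 8 further genes with symbols starting Aqp on 10 probe sets, and Mip, the lens aquaporin, on 2. RNA was measured on 8 Affymetrix rat arrays in 4 groups of 2: C6SPGFP fast, C6SPGFP slow, C6 fast and C6 slow. All samples are labelled as C6 glioma cells with migration as the subject. The labels do not say what SPGFP stands for, how fast and slow cells were obtained, and whether the replicates came from separate cultures. The p-values therefore reflect only the scatter of these 8 samples, and that scatter may be technical.

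Aquaporins are small membrane proteins that assemble as tetramers and let water pass along osmotic gradients, and some members, the aquaglyceroporins, also pass glycerol. AQP1 is the water channel of red cells, kidney proximal tubule, choroid plexus and many endothelia, while AQP4 is the main aquaporin of astrocytes. In cultured cells AQP1 gathers at the leading edge and has been linked to cell migration, and it is known from gliomas, whereas normal astrocytes of the brain parenchyma make little of it.

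The stretch just before the transcription start of Aqp1 is shown because it is the part of the gene from which the measured transcript is started. It was taken from RefSeq, build GRCr8, as the 250 bases before the annotated start on the plus strand, chr4:85812534-85812783, and the capitals mark a TATA motif.
Aqp1: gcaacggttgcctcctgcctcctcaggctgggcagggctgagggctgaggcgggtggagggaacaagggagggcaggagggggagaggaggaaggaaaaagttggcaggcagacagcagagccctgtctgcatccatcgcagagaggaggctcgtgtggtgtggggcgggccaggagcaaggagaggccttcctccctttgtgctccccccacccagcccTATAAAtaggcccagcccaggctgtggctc
The letters TATAAA began 30 bases before the start and were found, on either strand, in 12.9% of 33469 start regions of this length. Among 13 start regions of 12 aquaporin genes, 3 held them, those of Aqp1, Aqp3 and Mip. The letters GGGCGG were found once, 87 bases before the start, and in 30.5% of all regions. The letters CANNTG (65.5% of all regions), ACGTG (16.6%) and TGANTCA (6.34%) were not in this window of Aqp1. The window was rich in G and C, at 65.2% against a median of 51.2%. These matches describe the sequence and no binding was measured.

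The signals below were quantile normalised between arrays, because the deposited signals of C6SPGFP fast replicate 1 lay on another scale, with a 2% trimmed mean of 500.5 against 100.1 to 105.8 on the other 7 arrays. Normalised signals are in arbitrary units with a trimmed mean of 150.9. Changes are log2 changes of signal plus 8, tested with limma over 6684 probe sets with a mean signal of at least 8, and an adjusted p is after Benjamini-Hochberg adjustment over all of them at a threshold of 5%. Detection calls are not used here, so a signal of a few units is not shown to be above background. With 2 arrays in each group, precision is limited by their number. The group means of Vim, a filament gene of glia and other cells, lay between 2660 and 3720. Aqp4, the astrocyte aquaporin, had group means between 2.62 and 3.89, and levels of different probe sets are not comparable. Gfap, the defining filament of astrocytes, was not analysed here. RNA from fewer cells with Aqp1 and from less Aqp1 RNA per cell cannot be told apart in these bulk samples.

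Aqp1 was high in C6SPGFP fast cells, with normalised signals of 189.3 and 183.6, against 7.56 and 7.40 in C6SPGFP slow cells. In the C6 line it was 96.5 and 153.6 in fast cells, against 22.3 and 75.7 in slow cells. All 4 fast arrays thus lay above all 4 slow arrays, the lowest fast array at 96.5 and the highest slow array at 75.7, as did 1.96% of the probe sets tested. The replicates lay close together in both C6SPGFP groups, with the higher array at 1.03 times the lower in fast and 1.02 times in slow cells, and far apart in C6, at 1.59 times in fast and 3.39 times in slow cells. In both C6 groups replicate 2 was the higher array.

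**Figure D1:**
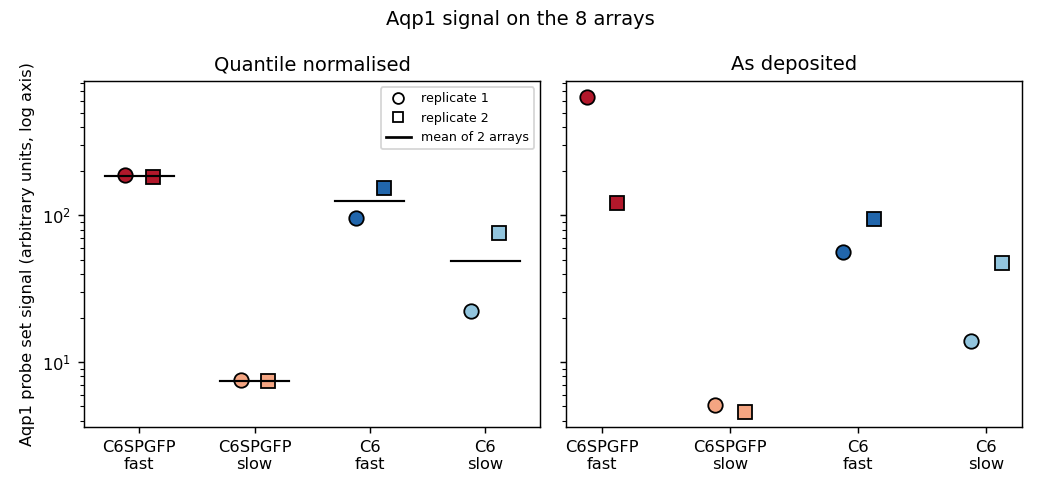
Aqp1 probe set signal on each of the 8 arrays (log axis, arbitrary units), quantile normalised on the left with the mean of 2 arrays as a bar, and as deposited on the right; circles are replicate 1 and squares replicate 2. The C6SPGFP fast arrays sit at 189.3 and 183.6 and the C6SPGFP slow arrays at 7.56 and 7.40 after normalisation, and the C6 slow arrays are the most widely spread, at 22.3 and 75.7.

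The deposited signals gave the same order. They were 642.9 and 120.6 in C6SPGFP fast cells, where the first array is the one on another scale, against 5.1 and 4.6 in C6SPGFP slow cells. In C6 they were 56.0 and 94.7 in fast cells against 14.0 and 47.7 in slow cells. As a rank within its own array, which needs no scaling between arrays, Aqp1 reached or passed 78.3% and 77.8% of the probe sets in C6SPGFP fast cells, against 24.97% and 24.67% in C6SPGFP slow cells. In C6 fast cells it reached or passed 66.7% and 74.8%, against 40.9% and 62.3% in C6 slow cells. The 4 groups had the same order on this rank, with the C6SPGFP groups at its ends. Quantile normalisation gives every array the same set of values, so the rank largely fixes the normalised signal. The shared order is not a separate result.

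From high to low, the group means were 186 ± 4.0 (SD, n = 2) in C6SPGFP fast, 125 ± 40.4 in C6 fast, 49.0 ± 37.7 in C6 slow and 7.48 ± 0.115 in C6SPGFP slow cells. The order of C6SPGFP fast, C6 fast, C6 slow and C6SPGFP slow held with no overlap between any neighbours. This was so for 5 of 6684 probe sets (0.0748%), those of Aqp1, Spn, leukosialin, Il18, a cytokine, Psme1, a proteasome activator subunit, and a probe set with no single gene name, S68944_i_at. They were looked up after the order of Aqp1 had been seen. None of the steps between neighbours passed the test over all probe sets (adjusted p = 0.433, 0.109 and 0.0534 from the top of the order down).

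The first comparison is that of fast with slow cells within the C6SPGFP set. Aqp1 rose in C6SPGFP fast cells by 3.65 ± 0.43 (SE) on the log2 scale, a 12.6-fold change of signal plus 8 (adjusted p = 0.0054; 95% interval 2.68 to 4.62). Of the probe sets tested, 1.06% rose in this comparison, and the increase of Aqp1 was the third in size of 6684. The arrays did not overlap, which held upward for 20.9% of probe sets. The slow group, at 7.48, lay under the filter of 8 and is not shown to be above background, so the size of the change depends on the pseudocount. The call ended without C6SPGFP fast replicate 1 (adjusted p = 0.0508), fast replicate 2 (0.0686) or slow replicate 2 (0.0627), and held without slow replicate 1 (0.0301), while the log2 change lay between 3.63 and 3.67 in all 8 runs that each left out an array.

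Within C6, the log2 change of Aqp1 between fast and slow cells, 1.37 ± 0.43 (SE), was not past the threshold (adjusted p = 0.109; 95% interval 0.39 to 2.34). The signals did not overlap, with 96.5 and 153.6 in fast against 22.3 and 75.7 in slow cells, and 24.3% of the probe sets tested were likewise higher in C6 fast cells with no overlap. The value turned on which C6 slow array was used. Without C6 slow replicate 2, the higher of the pair, the log2 change was 2.10 and passed (adjusted p = 0.00812), and without replicate 1 it was 0.63 (adjusted p = 0.344).

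Taken over the 4 groups together, the spread of Aqp1 within groups was large for its level. Its residual SD was 0.564 on the log2 scale, above that of 94.2% of the probe sets tested, whose median was 0.231. Among the 500 probe sets nearest to it in mean level the median was 0.245, and 96.0% had a smaller SD. Of the 3'/5' ratios of control transcripts, a measure of RNA integrity, that of hexokinase was 1.98 and 1.57 in C6 fast cells, against 2.23 and 1.88 in C6 slow cells, replicate 1 being the higher each time. In C6SPGFP it was 1.72 and 1.61 in fast cells, against 1.72 and 1.49 in slow cells. The part of RNA integrity in the Aqp1 signal was not tested.

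Whether the change between fast and slow cells differed between the sets was tested directly. The change of Aqp1 in C6SPGFP exceeded that in C6 by 2.28 ± 0.60 (SE), and this difference did not pass (adjusted p = 0.0913; 95% interval 0.91 to 3.66), while 3.82% of probe sets did. Without C6 slow replicate 1 the difference was 3.02 (adjusted p = 0.00701), and without replicate 2 it was 1.55 (adjusted p = 0.0791).

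The mean of both changes was added after the values had been seen. Aqp1 rose in fast cells on this mean by 2.51 ± 0.30 (SE) on the log2 scale (adjusted p = 0.00224; 95% interval 1.82 to 3.20), the sixth increase in size of 6684, and 2.41% of probe sets rose. The call held whichever of the 8 arrays was dropped, with log2 changes from 2.14 to 2.87 and adjusted p-values from 0.000547 to 0.0167.

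Between the sets, Aqp1 was lower in C6SPGFP slow than in C6 slow cells on every array, without passing the test. Its signals were 7.56 and 7.40 in C6SPGFP slow cells, against 22.3 and 75.7 in C6 slow cells, a log2 change of -1.70 ± 0.43 (SE; adjusted p = 0.0534; 95% interval -2.68 to -0.73). In this comparison 6.34% of probe sets passed and 24.7% were lower in C6SPGFP with no overlap. The log2 change was -2.44 without C6 slow replicate 1 (adjusted p = 0.0106) and -0.97 without replicate 2 (0.121). With a pseudocount of 1 it was -2.32 and passed (adjusted p = 0.0336). With the replicate number as a block the change of -1.70 also passed (adjusted p = 0.0384).

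Among fast cells the signals of Aqp1 were 189.3 and 183.6 in C6SPGFP, against 96.5 and 153.6 in C6. The log2 change of 0.58 ± 0.43 (SE) did not pass (adjusted p = 0.433; 95% interval -0.39 to 1.55), in a comparison where 15.6% of probe sets passed and 26.6% were higher in C6SPGFP with no overlap. The interval holds both no change and a change of 1.55 on the log2 scale. These comparisons share arrays, so that each group enters more than 1 of them.

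**Figure D2:**
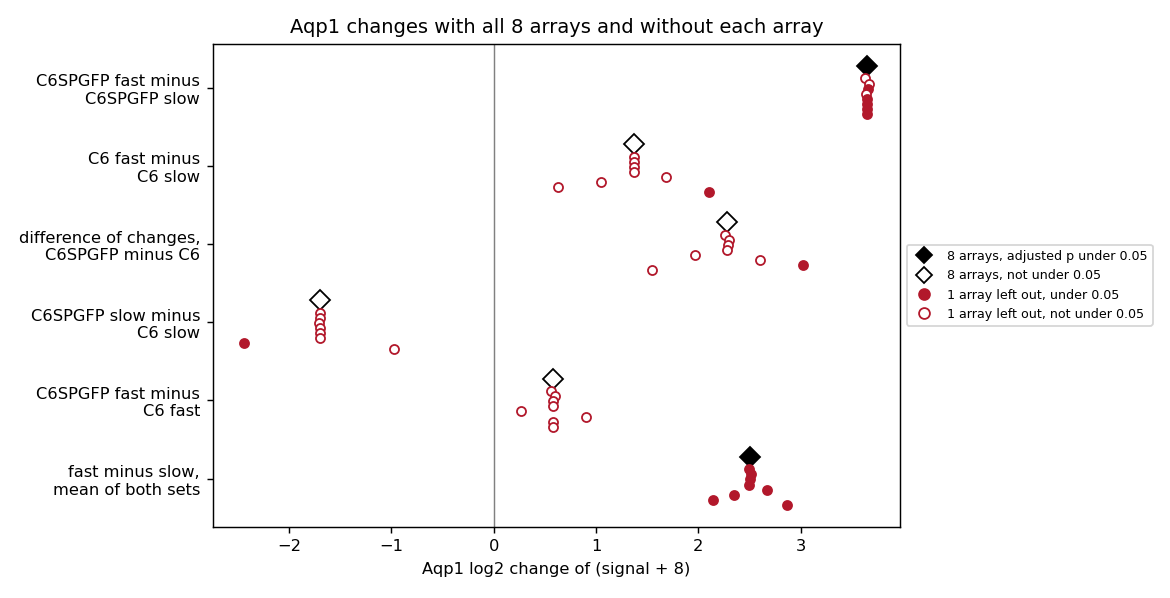
Aqp1 log2 change of signal plus 8 in 6 comparisons, with all 8 arrays (diamonds) and with each array left out in turn (circles); filled symbols have an adjusted p under 0.05. The change between C6SPGFP fast and slow cells stays between 3.63 and 3.67, whereas that between C6 fast and slow cells runs from 0.63 to 2.10, depending on which C6 slow array is left out.

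Of the aquaporin family, Aqp1 was the member that passed the test. Of the other 8 Aqp genes 7 were tested, on 8 probe sets, and with Mip the family came to 9 tested genes, Aqp1 included. On 1 probe set per gene, that with the highest mean signal, 1 of 9 rose in C6SPGFP fast cells and on the mean of both sets, that of Aqp1 each time, and none passed in the other comparisons. In C6SPGFP the median log2 change of the 9 was 0.038, against -0.02 over all probe sets, and in C6 it was 0.115 against 0.013. In C6 6.66% of all probe sets passed in either direction, so a count of 0 of 9 is close to that background. The share was 1.39% in C6SPGFP, 5.03% on the mean of both sets and 3.82% for the difference of changes. It was 6.34% between the slow groups and 15.6% between the fast groups. With 9 genes, a count of 0 says little about the family. At an unadjusted p under 0.05, limma gave 2 of 9 in C6, Aqp1 and Aqp9, against 19.4% of all probe sets, and 1 of 9 for the difference of changes, Aqp1, against 15.4%. It gave 2 of 9 between the slow groups, Aqp1 and Mip, against 21% of all, 1 of 9 between the fast groups, Aqp9, against 28.9%, and 2 of 9 on the mean of both sets, Aqp1 and Aqp9, against 16.8%.

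Aqp9, an aquaglyceroporin known from liver, had the largest change of the 9 tested members in C6, without passing the test. Its signals were 95.04 and 262 in C6 fast cells, against 54.5 and 37.1 in C6 slow cells, a log2 change of 1.65 ± 0.48 (SE; adjusted p = 0.0867). In the C6SPGFP set they were 89.8 and 43.5 in fast cells, against 73.5 and 45.1 in slow cells (0.11 ± 0.48, adjusted p = 0.972). The fast and slow arrays did not overlap in C6 and did overlap in C6SPGFP. The difference of these changes did not pass (-1.54 ± 0.68, adjusted p = 0.327). Without C6 fast replicate 1 the change in C6 was 2.35 and passed (adjusted p = 0.0307).

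Aqp5, the water channel of salivary and tear glands, had 2 probe sets that differed in level and in change. The dimmer, U16245_g_at, had signals of 6.44 and 6.92 in C6 fast cells, against 14.7 and 16.5 in C6 slow cells, a log2 change of -0.69 ± 0.24 (SE; adjusted p = 0.148). The brighter gave -0.18 ± 0.21 (adjusted p = 0.714). Between C6SPGFP slow and C6 slow cells the dimmer gave -0.81 ± 0.24 (adjusted p = 0.088) and the brighter -0.36 ± 0.21 (adjusted p = 0.375). The C6 slow arrays were the highest of all on both probe sets. The dimmer probe set passed in C6 when no filter was set (adjusted p = 0.0418) or with no trend in the moderation (0.0464), and between the slow groups under the same settings (0.0256 and 0.0299). Its group means were 4.37 in C6SPGFP fast, 5.44 in C6SPGFP slow, 6.68 in C6 fast and 15.6 in C6 slow cells. The dimmer probe set passed the filter of 8 only through C6 slow cells. Its changes thus rest on signals not shown to be above background.

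Aqp2, the channel that vasopressin places in the membrane of kidney collecting duct cells, changed by 0.65 ± 0.38 (SE) between C6SPGFP fast and slow cells (adjusted p = 0.634) and by 0.12 ± 0.38 in C6. Its signals of 19.4 and 26.0 in C6SPGFP fast cells overlapped with 20.2 and 5.41 in C6SPGFP slow cells. Aqp3, a water and glycerol channel of skin and kidney, changed by 0.26 ± 0.25 and -0.04 ± 0.25. Aqp7, a glycerol channel of fat cells, gave -0.14 ± 0.20 and -0.29 ± 0.20, and Aqp6, a channel of intracellular vesicles in kidney, -0.12 ± 0.22 and 0.04 ± 0.22. Aqp8, a channel of liver and gut, gave 0.04 ± 0.38 and 0.31 ± 0.38, and Mip -0.22 ± 0.18 and 0.13 ± 0.18. The adjusted p-values of these 6 genes lay between 0.505 and 0.988 in both comparisons of fast with slow cells.

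Aqp4 was not tested, since its mean signal lay under 8. It had 6.65 and 1.14 in C6SPGFP fast, 6.16 and 1.10 in C6SPGFP slow, 0.75 and 4.48 in C6 fast and 1.54 and 5.43 in C6 slow cells. The groups overlapped throughout. The second probe sets of Aqp2 and of Mip were also under the filter, with group means from 2.90 to 7.80 and from 4.03 to 7.11.

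**Figure D3:**
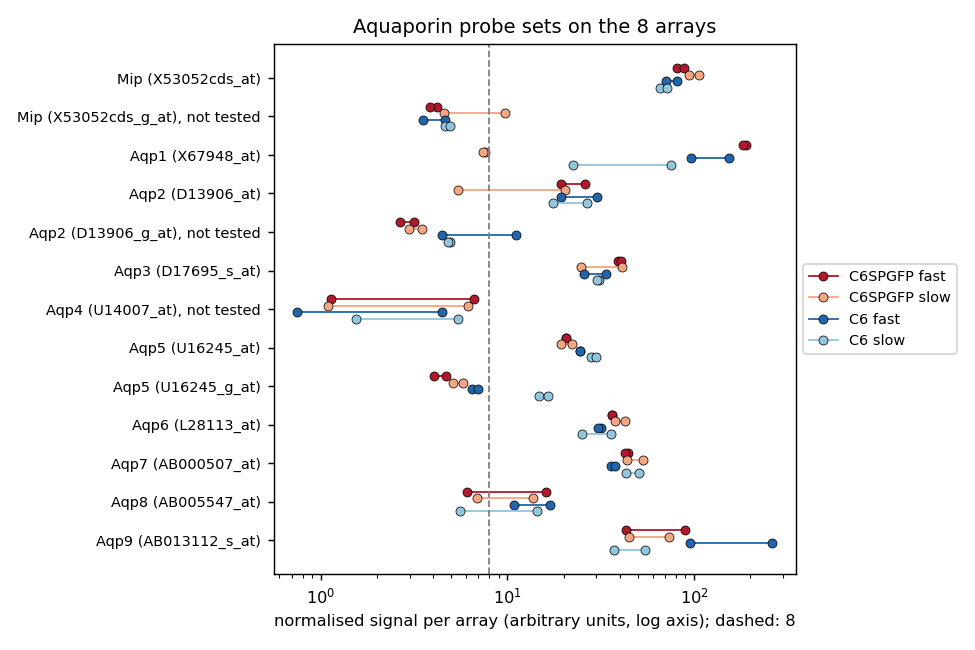
Normalised signal (log axis, arbitrary units) of the 13 aquaporin probe sets; each point is an array, a line joins the 2 arrays of a group, and the dashed line marks the filter at 8, which applies to the mean over 8 arrays. Aqp1 spans the range from 7.40 to 189.3, with the C6SPGFP groups at its ends, while Aqp4 lies below 8 on every array.

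**Figure D4:**
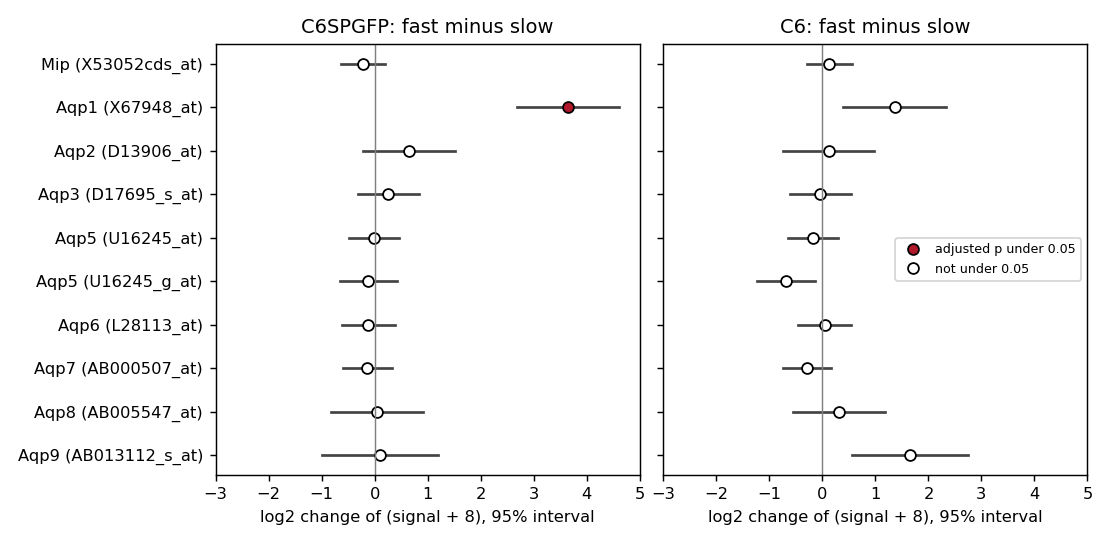
Log2 change of signal plus 8 between fast and slow cells with its 95% interval for the 10 aquaporin probe sets tested, in C6SPGFP on the left and in C6 on the right; the filled point has an adjusted p under 0.05. The point of Aqp1 in C6SPGFP, at 3.65 with an interval from 2.68 to 4.62, is the single filled one.

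Water moves through aquaporins after ions, so genes of ion transport and volume control were set beside Aqp1. Of 24 measured genes 21 were tested, and in C6SPGFP fast cells none rose and 1 fell, Kcnj10, a glial potassium channel, at -2.68 ± 0.32 (SE; adjusted p = 0.00545). Its group means were 6.99 in C6SPGFP fast, 92.9 in C6SPGFP slow, 5.17 in C6 fast and 5.16 in C6 slow cells, so it passed the filter of 8 only through C6SPGFP slow cells and its changes rest on signals not shown to be above background. In this comparison 1.39% of all probe sets passed in either direction. In C6 fast cells, where 6.66% of all probe sets passed, 1 rose, Atp1b1, a subunit of the sodium-potassium pump (4.36 ± 0.22, adjusted p = 1.58e-05), and none fell. On the mean of both sets, where 5.03% of all probe sets passed, the same members passed, Atp1b1 at 2.29 and Kcnj10 at -1.34. The median log2 change of the list was 0.011 in C6SPGFP and 0.002 in C6, against -0.02 and 0.013 over all probe sets.

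Slc12a2, the sodium-potassium-chloride cotransporter that loads cells with chloride, was lower in C6SPGFP than in C6, by a log2 change of -1.13 ± 0.20 (SE) in slow cells and -0.75 ± 0.20 in fast cells (adjusted p = 0.0157 and 0.0416). Kcnj10 was higher in C6SPGFP slow than in C6 slow cells (2.87 ± 0.32, adjusted p = 0.00218). In slow cells 1 of 21 was thus higher and 1 lower in C6SPGFP, where 6.34% of all probe sets passed. Among fast cells, where 15.6% of all passed, 3 were higher and 3 lower, the higher ones led by Fxyd1, a regulator of the pump (1.01), and Slc4a7, a bicarbonate cotransporter (0.71), and the lower ones by Atp1b1 (-4.21) and the anion exchanger Slc4a2 (-0.82).

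Carbonic anhydrases, which make bicarbonate and protons, held 5 tested of 6 measured genes. Car2 rose in C6 fast cells by 2.36 ± 0.28 (SE; adjusted p = 0.00133), with group means of 112 in C6 fast and 14.8 in C6 slow cells, against 27.3 in C6SPGFP fast and 24.2 in C6SPGFP slow cells, where the change was 0.13. The other 4 did not pass there, where 6.66% of all probe sets passed. At an unadjusted p under 0.05, limma gave 3 of 5 in C6, Car2 included, against 19.4% of all probe sets. None of the 5 passed in C6SPGFP, also at an unadjusted p under 0.05 in limma, which 9.69% of all probe sets reached. Between the sets Car2 was lower in C6SPGFP fast than in C6 fast cells (-1.71 ± 0.28, adjusted p = 0.00434), and none passed in limma among slow cells, also unadjusted. On the mean of both sets Car2 rose (1.25).

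Of 8 tested osmotic stress genes none passed in limma in C6SPGFP or on the mean of both sets, with 1 and 3 at an unadjusted p under 0.05. Of all probe sets, 1.39% and 5.03% passed in these comparisons, and 9.69% and 16.8% had an unadjusted p under 0.05. In C6 fast cells, where 6.66% of all probe sets passed, 1 rose, Slc5a3, which imports the osmolyte inositol (1.44 ± 0.34, adjusted p = 0.0411). Akr1b1, which makes the osmolyte sorbitol, was lower in C6SPGFP than in C6 cells, at -0.86 in slow and -0.57 in fast cells, and Slc5a3 was lower in fast cells (-1.56). Of 17 tested genes of the hypoxia response, none passed in limma in C6SPGFP (2 at an unadjusted p under 0.05), while in C6 fast cells Hif1a, the oxygen-regulated transcription factor, rose (1.42) and Adm, adrenomedullin, fell (-1.60). At an unadjusted p under 0.05, limma gave 9 of 17 in C6, against 19.4% of all probe sets. The 2 in C6SPGFP stand against 9.69%. Adm also fell on the mean (-1.35). Of this list, 3 were lower in C6SPGFP among slow cells, led by the haem oxygenase Hmox1 (-1.89) and the glucose transporter Slc2a1 (-1.66), and 8 among fast cells, led by Slc2a1 (-2.0) and Hmox1 (-1.63), with none higher. Of all probe sets 6.34% passed among slow and 15.6% among fast cells. The list's median among fast cells was -0.538 against -0.034 over all probe sets.

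Of 19 tested genes of the leading edge and the actin cytoskeleton none passed in limma in C6SPGFP (3 at an unadjusted p under 0.05), and in C6 1 fell, Ezr, ezrin, which links actin to the membrane (-2.40 ± 0.26, adjusted p = 0.000861). Of all probe sets, 1.39% passed in C6SPGFP, where 9.69% had an unadjusted p under 0.05, and 6.66% passed in C6. Ezr also fell on the mean (-0.90), where 5.03% of all probe sets passed. Between the sets, 1 of 19 was higher in C6SPGFP among slow cells, where 6.34% of all probe sets passed, and 5 among fast cells, led by Ezr (2.48), where 15.6% passed. None was lower. The list medians were -0.086 in C6SPGFP and -0.096 in C6.

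The genes most like Aqp1 were sought by Pearson's r over the 8 arrays among 1090 probe sets (884 genes) whose group means spanned at least 1 on the log2 scale. The median r was -0.009 and 5 probe sets (0.459%) had an r over 0.9. These values are descriptions, since the 8 arrays form 4 groups and share their normalisation. The 5 were those of Ceacam1, an adhesion molecule (0.96), Spn (0.952), Psmb9, an immunoproteasome subunit (0.941), Scn4a, a muscle sodium channel (0.908), and Vat1, a vesicle membrane protein (0.902). Medag, an adipogenesis gene (0.887), Ifitm3, an interferon-induced membrane protein (0.883), Plcg2, a phospholipase C (0.877), Il18 (0.866), and Slc34a1, a phosphate transporter (0.847), followed. Other probe sets of the same genes were less like Aqp1 for Scn4a (0.061 and 0.388) and for Slc34a1 (from -0.617 to 0.413), and gave 0.749 for Psmb9, 0.802 for Vat1 and 0.855 for Il18.

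Spn was the gene of the 10 whose change in C6SPGFP came closest to that of Aqp1 in size. It had 131 and 137 in C6SPGFP fast cells, against 3.66 and 2.05 in C6SPGFP slow cells (log2 change 3.71, adjusted p = 0.000255). In C6 it had 116 and 115 in fast cells, against 16.5 and 19.9 in slow cells (2.24, adjusted p = 0.000295). Its replicates lay close together in C6, where those of Aqp1 did not. Of the other 9, Medag, Psmb9 and Il18 also passed in C6SPGFP (1.80, 1.09 and 1.27), and Medag in C6 (1.59). Of all probe sets, 1.39% passed in C6SPGFP and 6.66% in C6. The 10 genes were picked for a high r with Aqp1 on these same arrays. Their rise in fast cells thus largely follows from the choice and is not a separate result. Medag had group means of 4.96 in C6SPGFP slow and 5.03 in C6 slow cells, under the filter of 8. It was tested only through the fast cells, so its changes rest on signals not shown to be above background. Ceacam1, the gene with the highest r, passed in neither, at 1.04 in C6SPGFP (adjusted p = 0.21) and 0.27 in C6 (0.698).

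The lowest r were those of Ncam1, a neural adhesion molecule (-0.966), Syngr1, a synaptic vesicle protein (-0.959), Nefm, a neurofilament subunit (-0.956), Igfbp3, which binds insulin-like growth factors (-0.898), and Hbegf, a ligand of the EGF receptor (-0.894). Other probe sets gave -0.702 for Ncam1 and -0.65 and -0.529 for Syngr1. Igfbp3 averaged 5.22 ± 2.13 in C6SPGFP fast, 35.0 ± 4.92 in C6SPGFP slow, 3.93 ± 0.345 in C6 fast and 7.25 ± 4.08 in C6 slow cells (SD, n = 2). Of the 5, Igfbp3 and Hbegf fell in C6SPGFP fast cells (-1.71 and -1.06, adjusted p = 0.0248 and 0.0227), and none passed in C6. Igfbp3 lay under the filter of 8 in every group but C6SPGFP slow and was tested only through that group. Its change thus rests on signals not shown to be above background. The same holds for Nefm, at 2.34 in C6SPGFP fast, 22.9 in C6SPGFP slow, 2.08 in C6 fast and 7.58 in C6 slow cells. All 5 genes were highest in C6SPGFP slow cells, where Aqp1 was lowest. They were picked for a low r with Aqp1 on these same arrays, so this order largely follows from the choice. It is not a separate result.

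**Figure D5:**
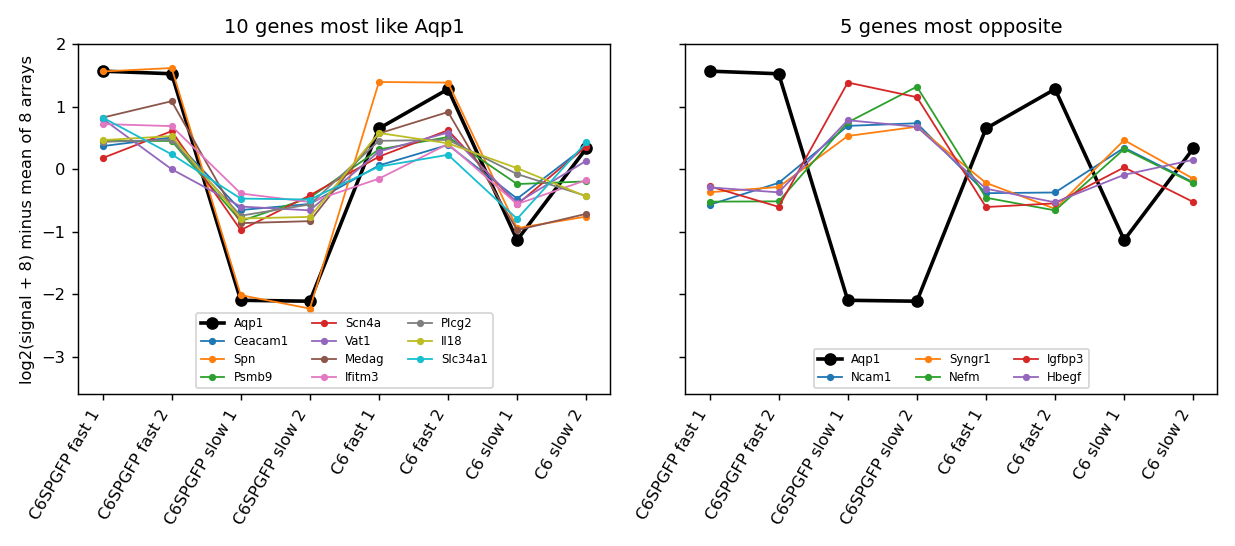
Log2 of signal plus 8, minus the mean of the 8 arrays, for Aqp1 (black) with the 10 genes of highest r (left) and the 5 of lowest r (right), array by array. Spn follows Aqp1 to a similar depth in C6SPGFP slow cells, where the signals of both lie under 8, and the other genes move less.

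Markers of cell types that normally hold much AQP1 were set beside it. None of 2 tested choroid plexus and ependymal, 4 endothelial and 5 red cell lineage markers passed in limma in any of the 6 comparisons, and at an unadjusted p under 0.05 each list had 0 or 1 in every comparison. Of all probe sets, 1.39% to 15.6% passed in these comparisons, and 9.69% to 28.9% had an unadjusted p under 0.05. The summed signal of the 5 measured endothelial markers was 88.2 to 137 in C6SPGFP fast, 124 to 144 in C6SPGFP slow, 130 to 135 in C6 fast and 116 to 146 in C6 slow cells. That of the 6 red cell markers ran from 269 to 308, 322 to 352, 282 to 380 and 234 to 256 in the same order, and that of the 3 choroid plexus markers from 75.7 to 76.1, 89.5 to 90.2, 59.0 to 67.9 and 69.7 to 76.6. In C6SPGFP, where Aqp1 rose in fast cells, the fast arrays lay below the slow arrays in the red cell and choroid plexus sums, and in the endothelial sum they overlapped. In C6 the fast arrays lay above the slow arrays in the red cell sum, as Aqp1 did, below them in the choroid plexus sum, and overlapped in the endothelial sum. The part of such cells in the Aqp1 signal was not tested.

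The 9 measured microglial and haematopoietic markers summed to 242 and 244 in C6SPGFP fast cells, against 112 and 97.4 in C6SPGFP slow cells, and to 256 and 262 in C6 fast against 113 in each C6 slow array. Most of that gap was Spn, which stands in this list. Without it the 8 others summed to 111 and 107 in C6SPGFP fast against 108 and 95.3 in C6SPGFP slow cells, and to 140 and 147 in C6 fast against 96.9 and 92.7 in C6 slow cells. Of 5 tested markers, Spn rose in both sets and Cd37, a leukocyte tetraspanin, in C6 fast cells (1.41). Of all probe sets, 1.39% passed in C6SPGFP and 6.66% in C6. Ptprc, the leukocyte antigen CD45, had group means from 36.8 to 47.3, Itgam from 1.71 to 2.79 and Cd53 from 1.62 to 9.03. The part of microglia or blood cells in the Aqp1 signal was not tested either.

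Of the 8 tested astroglial markers none passed in limma in C6SPGFP (2 at an unadjusted p under 0.05), and in C6 fast cells 3 fell, led by S100b, a calcium-binding glial protein (-2.50), and Nes, nestin (-1.98), and none rose, where 6.66% of all probe sets passed. In C6SPGFP 1.39% of all probe sets passed and 9.69% had an unadjusted p under 0.05. S100b averaged 1260 ± 19.4 in C6SPGFP fast, 1230 ± 6.34 in C6SPGFP slow, 65.9 ± 12.8 in C6 fast and 408 ± 18.4 in C6 slow cells (SD, n = 2). These values are of its brighter probe set. A dimmer probe set of S100b averaged 19.2 ± 1.03, 20.4 ± 1.48, 10.3 ± 4.1 and 12.6 ± 1.58 in the same order, without a fall of that size in C6. The astroglial sum was 5950 to 6011 in C6SPGFP fast, 5648 to 5652 in C6SPGFP slow, 3178 to 3465 in C6 fast and 4614 to 4992 in C6 slow cells, so it was the C6 fast arrays that stood lowest.

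The genes beside Aqp1 on chromosome 4 were also looked up. Of the 5 measured genes nearest on each side in the RefSeq order, 9 were tested, and none passed in limma between C6SPGFP fast and slow cells (1 at an unadjusted p under 0.05). Of all probe sets, 1.39% passed in this comparison and 9.69% had an unadjusted p under 0.05. Ghrhr, the receptor of growth hormone releasing hormone and the next coding gene, had a log2 change of -0.11 in C6SPGFP (adjusted p = 0.92) and 0.04 in C6 (0.956). Adcyap1r1, a neuropeptide receptor 2 genes away, was under the filter, with group means from 5.52 to 9.02. Chn2, 15 coding genes away, fell in C6 fast cells (-1.36, adjusted p = 0.0141) and was higher in C6SPGFP fast than in C6 fast cells (adjusted p = 0.000846). The others, Hoxa5, Hibadh, Wipf3, Plekha8, Pde1c, Mmrn1 and Hpgds, passed in none of the comparisons of fast with slow cells or of the sets.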

How the data were processed

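RNA of 8 C6 samples, 2 per group, was measured on a rat Affymetrix array of 8799 probe sets, of which 59 are controls. The deposited values are linear intensities per probe set, on a global scale per array as the values show, with C6SPGFP fast replicate 1 on a scale of its own; no source used here names the authors' software, background correction or scaling. Groups are the sample titles without the replicate number. Probe sets were named through the array's annotation, updated by gene ID to GRCr8 (6985 of 7006 matched, and 21 kept the old name); 308 probe sets named several genes and 1426 none.

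Arrays were quantile normalised in R 4.3.3, controls were left out, 2056 probe sets with a mean signal under 8 were dropped, and log2 of signal plus 8 was fitted with 4 group means in limma 3.58.1 (trended moderation, 4 residual and 4.49 prior degrees of freedom, Benjamini-Hochberg adjustment). The fit was tested on simulated data. The genes named in the text were every aquaporin, Vim and S100b, up to 2 called members per direction and comparison of each list, the 10 genes with the highest and the 5 with the lowest correlation with Aqp1, and the 5 nearest measured neighbours on each side. Markers of other cell types and genes needed for a sentence were added to these after their values were seen. The members and lists were chosen with earlier results of these data known. Alternatives were other scalings, pseudocounts, filters, moderation without a trend, a replicate block, the compared arrays alone, and each array left out after normalisation.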

Additional observations from a re-analysis of the deposited data

Results flagged for a closer look

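For 9 genes of the lists and neighbours above, the change between fast and slow cells differed between the sets by the test of the difference itself (C6SPGFP minus C6, limma, Benjamini-Hochberg adjustment). Of all probe sets, 3.82% passed this test. It called 2 of 21 tested ion and volume genes, 1 of 5 carbonic anhydrases and 2 of 19 leading edge genes. It also called 2 of 8 astroglial and 1 of 5 microglial and haematopoietic markers, and Chn2 among the neighbours. None of 9 aquaporins, 8 osmotic stress and 17 hypoxia genes passed. The change of Aqp1 did not pass that test (2.28, adjusted p = 0.0913). Of the ion and acid transport genes, the difference was -4.13 ± 0.32 (SE) for Atp1b1 (adjusted p = 0.00022), with log2 changes of 0.22 in C6SPGFP and 4.36 in C6. It was -2.23 ± 0.40 for Car2 (adjusted p = 0.0187), with 0.13 in C6SPGFP and 2.36 in C6. Kcnj10 gave -2.69 ± 0.45 (adjusted p = 0.013), with -2.68 in C6SPGFP and 0.00 in C6. Its group means lay under the filter of 8 in C6SPGFP fast, C6 fast and C6 slow cells (6.99, 5.17 and 5.16), and it was tested only through C6SPGFP slow cells (92.9), so these values rest on signals not shown to be above background.

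Of the actin and glial genes, Ezr gave 3.0 ± 0.37 (adjusted p = 0.00306), with 0.60 in C6SPGFP and -2.40 in C6. Arpc1b, a subunit of the actin branching complex, gave 0.72 ± 0.15 (adjusted p = 0.0344), with 0.38 and -0.34 in the same order. S100b, on its brighter probe set, gave 2.55 ± 0.22 (adjusted p = 0.000433), with 0.04 in C6SPGFP and -2.50 in C6. Nes gave 1.62 ± 0.27 (adjusted p = 0.013), with -0.36 and -1.98. Spn, which was like Aqp1 over the arrays, gave 1.47 ± 0.28 (adjusted p = 0.0263), with 3.71 in C6SPGFP and 2.24 in C6. Its mean in C6SPGFP slow cells was 2.86, under the filter of 8. The difference for Spn thus rests in part on signals not shown to be above background. Chn2, on the chromosome of Aqp1, gave 1.88 ± 0.36 (adjusted p = 0.0242), with 0.53 in C6SPGFP and -1.36 in C6.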

How the results depend on the processing

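The change of Aqp1 between C6SPGFP fast and slow cells (3.65) passed under all 9 other settings, from 2.47 with a pseudocount of 32 to 4.49 with the deposited scaling. With each array left out it ran from 3.63 to 3.67 (adjusted p 0.00108 to 0.0686). The mean over both sets passed under all 8 other settings (1.74 to 3.0) and ran from 2.14 to 2.87 with each array left out. In C6 no other setting passed (1.01 to 1.54), and with each array left out the change ran from 0.63 to 2.10, passing without C6 slow replicate 2. The difference of changes was 1.45 to 3.28 and passed in none of 8 settings, and with each array left out it ran from 1.55 to 3.02, passing without C6 slow replicate 1. Between the slow groups it passed with a pseudocount of 1 (-2.32), a filter at the 50th percentile (-1.70) and a replicate block (-1.70), and with each array left out it ran from -2.44 to -0.97, passing without C6 slow replicate 1. Between the fast groups no setting passed (0.50 to 1.84), and with each array left out it ran from 0.27 to 0.90. The causes were not tested.

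Whether same-numbered samples are paired is not given by the labels. Same-numbered arrays correlated between -0.127 and 0.266 in their deviations from the group means, highest between C6 fast and C6 slow. With the replicate block the adjusted p of Aqp1 was 0.00426 in C6SPGFP and 0.0384 between the slow groups.

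Counts of probe sets passing were 93 in C6SPGFP, 445 in C6, 255 for the difference, 424 between slow groups, 1042 between fast groups and 336 for the mean. In the same order they were 15, 20, 24, 2, 182 and 12 with the deposited scaling, where C6SPGFP fast replicate 1 keeps its own scale. There the probe sets passing were higher in 100% in C6SPGFP, against 76.3%, in 95.8% for the difference, against 71.0%, in 94.0% between fast groups, against 53.2%, and in 100% for the mean, against 47.9%. The median of all probe sets moved to 1.04, 1.08, 1.11 and 0.49, and relative to it Aqp1 was at 3.45, 2.2, 0.73 and 2.36. With the compared arrays alone the counts were 230 in C6 and 270 between slow groups. With each array left out they ran from 21 to 107 in C6SPGFP, 286 to 445 in C6, 122 to 273 for the difference, 95 to 422 between slow groups, 517 to 1125 between fast groups and 167 to 298 for the mean. Without detection calls, changes that rest on signals of a few units have no known distance from background.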
